A study of Drosophila melanogaster with 12 samples.

Results

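The genes described here were 34 of the 7807 genes that the deposited count table lists only by a CG number, out of 15340 gene rows in all. A CG number is the serial name that the fly genome project gave to a predicted gene, and it is kept until someone names the gene, so such genes are mostly those with little or no published work. The 34 were chosen from the measured values themselves. CPM, the count of a gene per 1000000 gene counts of its library with ERCC spike-in RNA left out, had to reach a mean of at least 10 at 36 h or at 50 h after larval hatching. That mean also had to be at least 1.5 times both the 24 h and the 84 h mean, all 3 libraries of that age had to lie above all 6 libraries of the end ages, and the end means had to differ by under 2 times. The height at 36 or 50 h over the ends is therefore the reason these genes are shown and is given as a description. Fitted values for it are printed further on, and nothing is read from them.

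The cells were larval type II neuroblasts of Drosophila melanogaster, the brain stem cells that divide asymmetrically into intermediate neural progenitors and so make large lineages. As they age they pass from a young state with high Imp to an old state with high Syp, and the steroid hormone ecdysone acts on them midway. The 4 groups were the ages of 24, 36, 50 and 84 h, with 3 libraries each. Each library came from 93 to 132 pooled cells sorted for a GFP label out of dissociated brains, with the same volume of ERCC mix 1. The sources used here name neither the driver of the label nor the genotype or sex of the larvae. No label tells whether the 3 libraries of an age were dissected separately. The p-values therefore speak only of how much these libraries vary, which could be technical variation. In a pool, fewer cells with a transcript and less transcript per cell cannot be told apart.

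Gene counts per library ran from 4512102 to 8391731, so that 3 counts corresponded to 0.357 to 0.665 CPM (counting error only). The 11 neuroblast markers summed to 3305 to 5070 CPM, and ase, a gene that type II neuroblasts lack, had means of 3.65 to 7.29 CPM. Imp had 42424.5 CPM or more in every 24 h library and 289 or less at 84 h, and br and EcR, genes of the ecdysone response, had their highest values at 50 h (834 to 965 and 276 to 332 CPM). Markers of later lineage cells also differed between ages. The 5 intermediate progenitor markers summed to 66.1 to 115 CPM at 50 h against 23.6 to 38.8 at 24 h, 20.6 to 61.5 at 36 h and 4.58 to 11.1 at 84 h. Most of this came from D, a Sox factor, with means of 23.5, 44.3, 81.7 and 5.68 CPM at the 4 ages. The highest means of hbn and opa were 3.87 and 1.50 CPM, while erm and ham stayed at means of 1.04 CPM or less. The 3 markers of ganglion mother cells and young neurons summed to 116 to 173 CPM at 50 h, with 24.2 to 53.5 at 24 h, 33.0 to 82.5 at 36 h and 89.7 to 106 at 84 h. The 8 glial markers summed to 328 to 498, 469 to 658, 535 to 608 and 370 to 511 CPM at the 4 ages in turn. Most of this came from 2 genes with unlike courses. Eaat1 had means of 140, 243, 221 and 108 CPM, and nrv2 rose from 249 through 311 and 327 to 339. The highest mean of moody was at 24 h (12.2 CPM), and those of alrm and Gs2 were at 50 h (5.81 and 2.36 CPM). Both repo and gcm stayed at means of 1.63 CPM or less. The neuron list (9 of 11 genes in the table) summed to 288 to 328, 244 to 314, 314 to 330 and 387 to 533 CPM at the 4 ages. Most of this came from elav and cac, highest at 84 h, and futsch, highest at 24 h. In contrast, brp, Syt1 and para had their highest means at 50 h (13.7, 4.22 and 5.70 CPM). Rdl, VGlut and Gad1 were highest at 24 or 84 h, at means of 1.71 CPM or less. The hemocyte and fat body list stayed at 24.6 CPM or less. The part of such cells in the values below was not tested.

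Most of the 34 genes peaked at the later of the 2 middle ages, and at low levels. The higher of the 2 middle means was that of 50 h for 23 genes and that of 36 h for 11. The mean at the peak had a median of 23.5 CPM, with 11 genes at 30 CPM or more and 1 above 100. The ratio of the peak to the higher end had a median of 1.80, and it reached 2 for 12 genes and 3 for 3 genes. The condition was met at both middle ages by 4 genes, at 36 h alone by 8 and at 50 h alone by 22. At the end ages 22 of the 34 were higher at 84 h and 12 higher at 24 h.

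**Figure D1:**
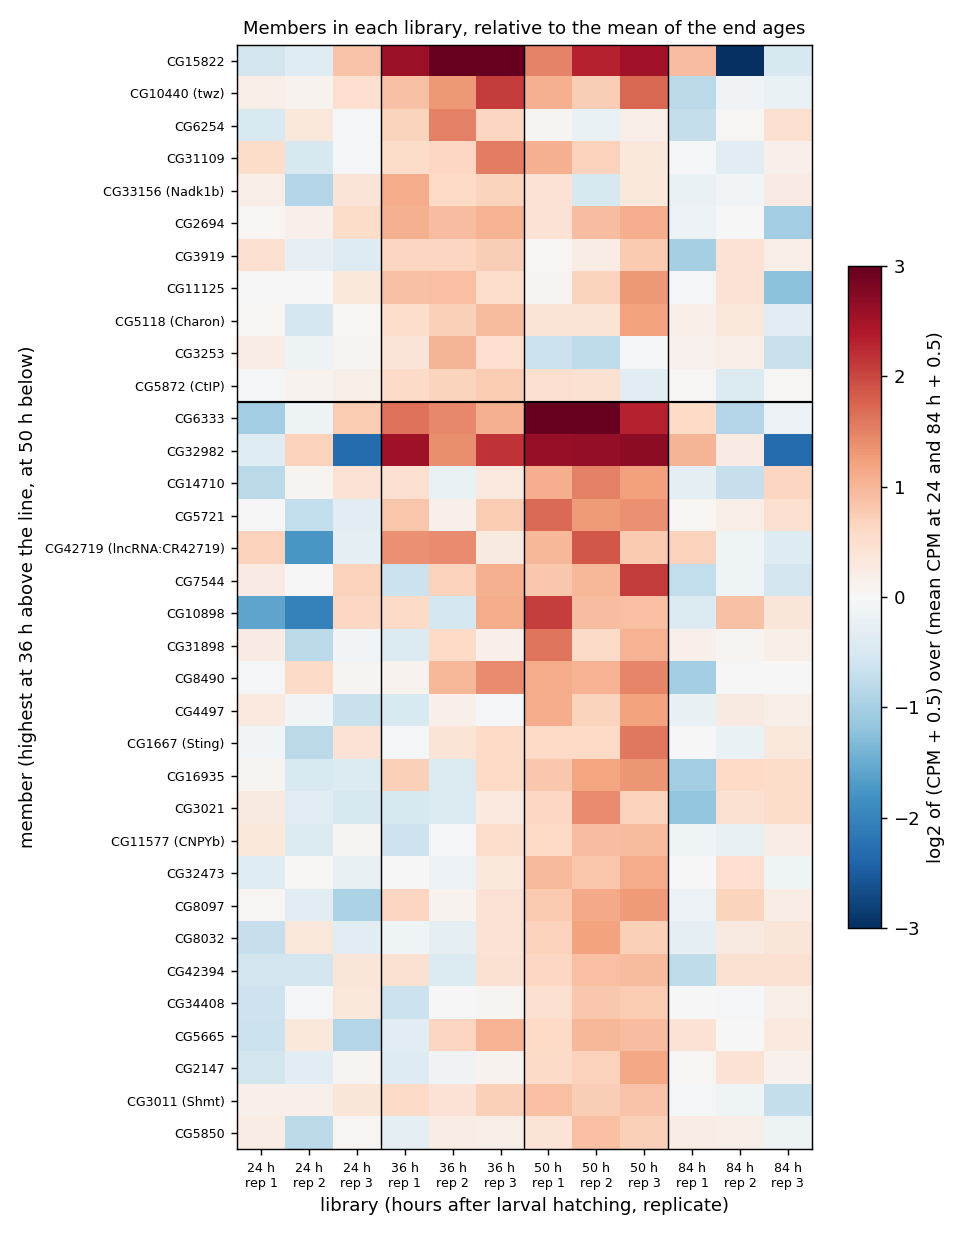
Level of each of the 34 genes (rows) in each of the 12 libraries (columns), as log2 of its CPM + 0.5 over its own mean CPM at 24 and 84 h + 0.5, with colours clipped at 3 in either direction; a symbol in brackets is the current name. The 11 genes above the line are highest at 36 h and the 23 below at 50 h, and CG15822, CG6333 and CG32982 show the darkest red, at 36 h or 50 h.

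The rule took a small share of what it could have taken. Of the CG genes, 2077 had a mean of at least 10 CPM at 36 or 50 h, 120 of these were also past the 1.5-fold limit, 45 also had libraries that stood apart, and 34 also had like end means, or 1.64% of the 2077. Among genes with any other symbol the same rule kept 62 of 3249, or 1.91%, EcR and the neuroblast markers pnt and CycE among them. The rest of the 11 neuroblast markers were not kept and went several ways. By their means, dpn, insc and Sp1 were highest at 50 h, N at 36 h, and wor, mira and btd at 84 h. Both klu and grh were lowest at 50 h (524 and 639 CPM). The rule also kept nerfin-1, brp, Eaat1 and sls, which were listed as markers of young neurons, neurons, glia and muscle. No other gene of these lists was kept. Among them, tap and nrv2 were highest at 84 h (20.8 and 339 CPM) and Tm1 was lowest at 50 h (292 CPM). In contrast, pros and Mef2 were highest at 50 h (98.0 and 52.7 CPM). The other muscle markers, Mhc, Act57B and up, had means of 2.64 CPM or less. The rule turned over, for genes lowest at a middle age, kept 31 of the 1611 CG genes with both end means at 10 CPM or more. Membership depended on the scaling: with TMM-adjusted library sizes 17 of the 34 still met the rule, with ERCC totals 10 and on the deposited TPM 30. CG14710 and CG8490 met it under all 3 of these and without any 1 library. The genes nearest the 1.5-fold limit were CG5872 (1.50), CG5850 (1.52) and CG3011 (1.53) inside it, and CG10880 (1.50, below the limit before rounding), CG9203 (1.48) and CG5674 (1.47) outside.

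CG15822 (FBgn0035308, arm 3L) was the gene with the largest rise at 36 h. It held 3.69, 4.26 and 10.6 CPM at 24 h, 36.2, 55.2 and 54.0 at 36 h, 16.7, 29.8 and 34.8 at 50 h, and 11.3, 0.187 and 3.92 at 84 h. Every middle library stood above every end library, and the 36 h mean of 48.5 ± 10.6 CPM (SD, n = 3 here and below) was 7.82 times the higher end mean. The 3 libraries of 84 h differed widely among themselves, from 1 count to 64. The annotation gives it a protein of up to 1267 residues, and no name.

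CG6333 (FBgn0036731, arm 3L) had the largest ratio of all, 13.5, on small counts. It held 0.119, 0.646 and 1.63 CPM at 24 h, 3.43, 2.92 and 2.14 at 36 h, 15.4, 11.1 and 5.76 at 50 h, and 1.41, 0.187 and 0.619 at 84 h. At 24 and 84 h this was 1 to 8 counts per library, against 26 to 89 at 50 h. The 36 h libraries also stood above all end libraries, although at a mean of 2.83 ± 0.65 CPM they were under the level the rule asks for. The 50 h libraries spread by a coefficient of variation of 45.0%.

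CG32982 (FBgn0052982, arm 2L) was high at both middle ages. It held 1.43, 3.49 and 0 CPM at 24 h, 13.9, 6.04 and 10.7 at 36 h, 14.7, 14.9 and 15.5 at 50 h, and 4.58, 2.44 and 0 at 84 h. The count of 0 in 24 h replicate 3 allows up to 0.613 CPM and that in 84 h replicate 3 up to 0.619. The 50 h libraries agreed closely (15.1 ± 0.41 CPM, a coefficient of variation of 2.70%), and the peak was 6.44 times the higher end. It was the 1 gene of the 34 that was not detected in every library.

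CG10440, now named twz (tiwaz, FBgn0034636, arm 2R), encodes a BTB-domain protein of the KCTD family. It held 12.99, 12.02 and 15.94 CPM at 24 h, 21.0, 28.1 and 49.7 at 36 h, 23.9, 19.1 and 37.9 at 50 h, and 6.16, 10.3 and 9.69 at 84 h. All 6 middle libraries lay above all 6 end libraries. The 36 h mean of 32.9 ± 14.95 CPM was 2.41 times the 24 h mean, and 36 h replicate 3 alone gave 50.3% of the 36 h sum.

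CG5721 (FBgn0034315, arm 2R) held 20.9, 12.3 and 16.5 CPM at 24 h, 37.0, 23.2 and 35.6 at 36 h, 68.7, 50.6 and 54.1 at 50 h, and 21.5, 23.8 and 29.1 at 84 h. Its lowest 50 h library was 1.74 times its highest end library, the widest gap after the first 3 genes. CG8490 (FBgn0033715, arm 2R) held 18.2, 28.2 and 20.02 CPM at 24 h, 20.2, 38.0 and 51.2 at 36 h, 41.5, 39.3 and 52.7 at 50 h, and 8.98, 19.1 and 18.6 at 84 h. Its 36 h libraries overlapped those of 24 h, while those of 50 h did not.

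CG2694 (FBgn0024991, X) met the rule at 36 h alone, with 41.4, 38.0 and 41.3 CPM at 36 h and 26.5, 37.6 and 42.3 at 50 h. Its 24 h libraries held 20.5, 21.8 and 29.2 CPM and those of 84 h 17.3, 19.9 and 9.28. Thus 50 h replicate 1 lay below 24 h replicate 3. The 36 h libraries agreed within a coefficient of variation of 4.81%.

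CG3011, now Shmt (FBgn0029823, X), was the highest of the 34 in CPM. It encodes serine hydroxymethyltransferase, which moves a carbon unit from serine to folate for the making of nucleotides and methyl groups. Its libraries held 67.2, 66.9 and 78.3 CPM at 24 h, 89.5, 81.5 and 99.4 at 36 h, 113, 102 and 109 at 50 h, and 58.1, 54.9 and 36.7 at 84 h. All 6 middle libraries lay above all 6 end libraries, but the 50 h mean of 108.1 ± 5.82 was only 1.53 times that of 24 h.

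**Figure D2:**
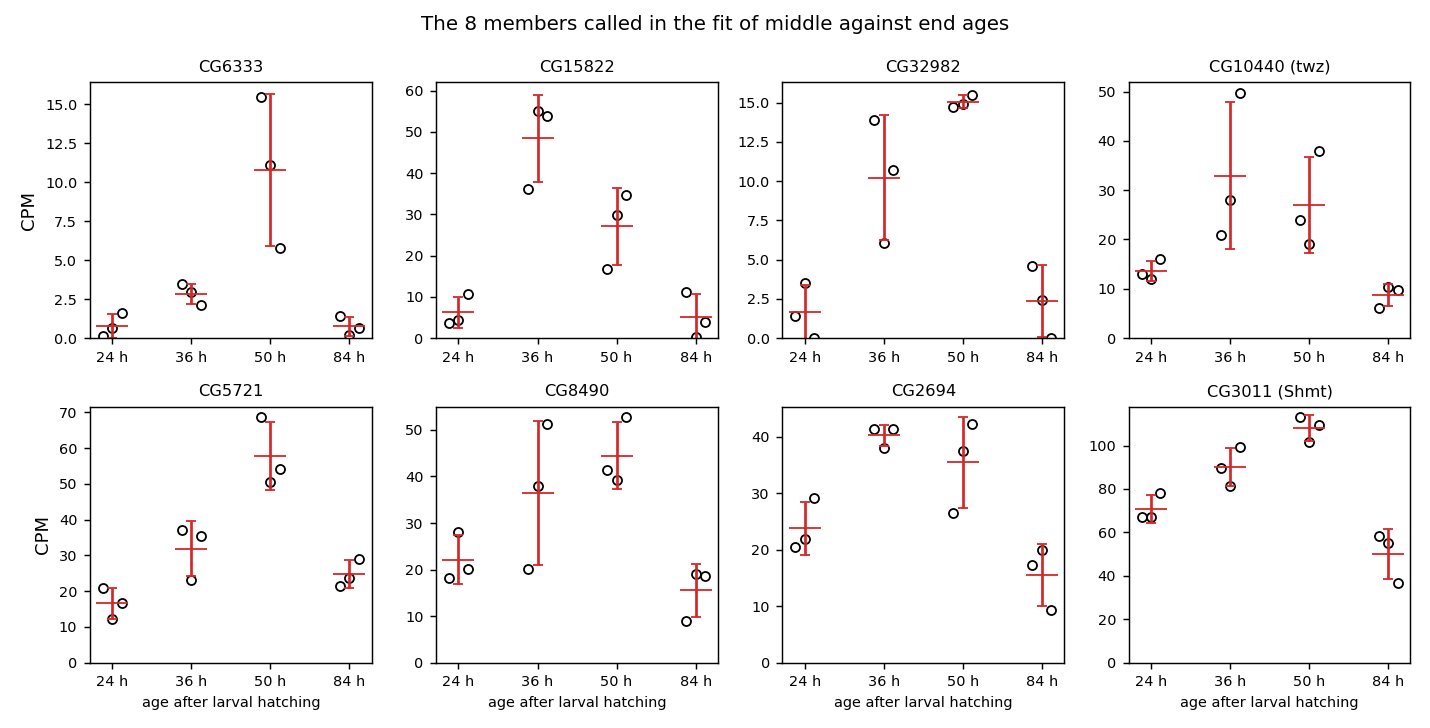
CPM of 8 genes by age: open circles are the 3 libraries of an age, the red line their mean and the bars 1 SD, and each panel has its own axis from 0. CG15822 stands highest at 36 h with 36.2 to 55.2 CPM, CG6333 at 50 h, and Shmt has 66.9 to 78.3 CPM at 24 h and 102 to 113 at 50 h.

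The 8 genes above were those that edgeR called for the middle against the ends. Because the rule chose on this same contrast, the calls were no test of the members and are given only as a description. edgeR's quasi-likelihood test set the 36 and 50 h libraries against those of both end ages. With Benjamini-Hochberg adjustment and a threshold of 0.05, it called 237 of 7978 genes, or 2.97%. Those called as higher made up 1.39% and those called as lower 1.58%. It called 8 of the 34 members as higher and 0 as lower. DESeq2 called 8 members too (2.98% of all genes, 1.61% as lower), with CG42719 in place of CG32982, and limma on the deposited TPM called 7 (1.14%, 0.448% as lower), without CG2694. The log2 fold changes (± SE) were 2.86 ± 0.63 for CG6333, 2.65 ± 0.53 for CG15822, 2.56 ± 0.63 for CG32982, 1.42 ± 0.24 for twz, 1.10 ± 0.22 for CG8490, 1.07 ± 0.20 for CG5721, 0.97 ± 0.21 for CG2694 and 0.72 ± 0.14 for Shmt. The number of sorted cells was 101 to 132 per library at the middle ages and 93 to 105 at the ends, and with that number in the fit 1 member, CG2694, was still called, and 74 of all genes. The log2 fold changes of the 8 were then 0.75 to 2.98. With ERCC totals CG2694, CG8490 and Shmt were no longer called, and their log2 fold changes were 1.54, 1.74 and 1.43 on that scale, where the median of all genes was 0.67. Single libraries ended the calls of CG15822 (24 h replicate 1 or 2, 50 h replicate 2 or 84 h replicate 3), of CG6333 (50 h replicate 1) and of CG32982 (24 h replicate 1, 36 h replicate 1 or 3, 50 h replicate 2 or 3, or 84 h replicate 2).

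The difference between 36 and 50 h was not part of the rule, although a gene taken at one age alone is favoured to be higher there. No member passed edgeR's test for it, 0 of 34, among them 0 of the 4 taken at both ages and 0 of the 30 taken at one. Of all genes tested 4.25% passed, 1.88% as higher at 50 h and 2.37% as lower. At an unadjusted p under 0.05 there were 11 of the 34, or 32.4%, against 17.4% of all genes. DESeq2 called 1 member, CG3253, as lower at 50 h (4.19% of all genes, 1.99% higher and 2.2% lower). Limma on the deposited TPM called 1 other, CG2147, as higher (2.58% of all genes, 1.85% higher and 0.73% lower). CG3253 (FBgn0041706, arm 2R), named here after its values were seen, held 11.3, 17.7 and 12.2 CPM at 36 h and 5.20, 4.83 and 8.20 at 50 h, where it was under both end means of 8.87 and 8.08. Its log2 fold change was -1.38 ± 0.46 (edgeR adjusted p = 0.101). CG6254 (arm 3R), chosen in the same way, fell short of the test too, with 16.6, 29.8 and 16.3 CPM at 36 h, 10.8, 8.82 and 11.7 at 50 h and -1.20 ± 0.42 (edgeR adjusted p = 0.117). For CG6333 the value was 1.73 ± 0.82 (adjusted p = 0.278), for CG15822 -1.01 ± 0.69 (adjusted p = 0.517) and for CG32982 0.37 ± 0.81 (adjusted p = 0.879). With ERCC totals, which moved the median of all genes to 1.10, the changes were -0.36 for CG3253, -0.06 for CG6254, 3.07 for CG6333, -0.17 for CG15822 and 1.43 for CG32982.

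**Figure D3:**
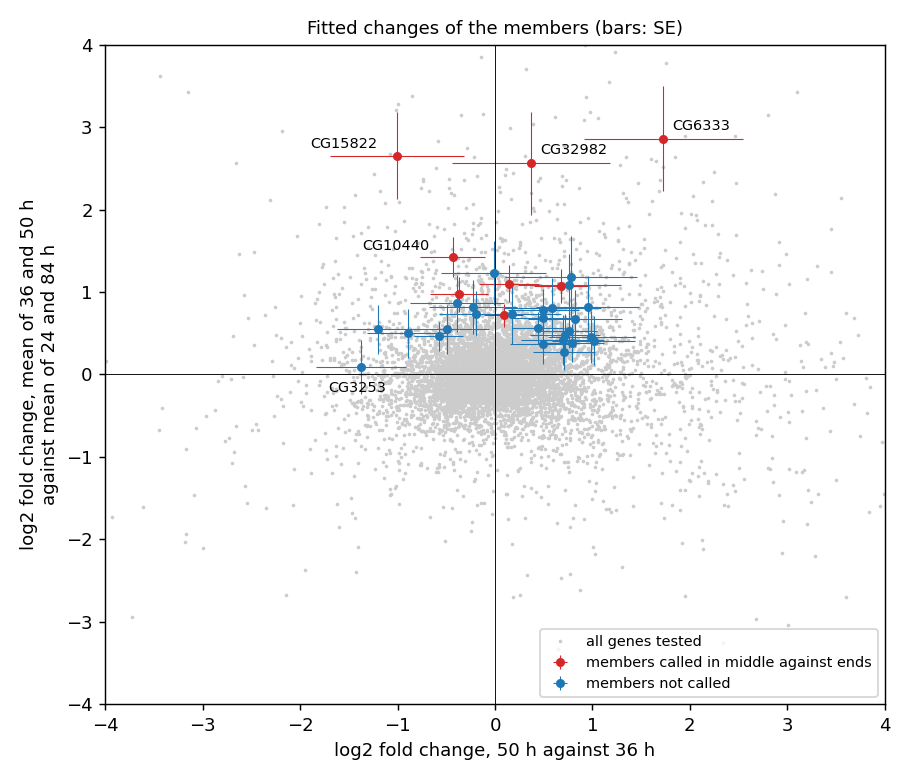
Fitted log2 fold change of 50 h against 36 h (horizontal) and of the middle ages against the ends (vertical, the contrast that chose the members), for all genes tested (grey, a few lie outside the axes) and for the 34 members with SE bars. The 8 members in red were called in middle against ends, with CG6333, CG15822 and CG32982 at the top (2.86, 2.65 and 2.56).

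The middle age that did not peak also differed between members. Of the 23 genes highest at 50 h, 16 had a 36 h mean above both end means, but 8 had no 36 h library above all end libraries, and the median ratio of 36 h to the higher end was 1.13. Of the 11 genes highest at 36 h, 10 had a 50 h mean above both ends, and the median ratio was 1.49. These ratios share the end libraries that the rule asks to be low. Across the 12 libraries the median Pearson correlation of log2(CPM + 1) was 0.49 among pairs of 36 h genes (55 pairs), 0.59 among pairs of 50 h genes (253 pairs) and 0.28 between the classes. The rule that chose the genes sets much of this, and the points share library and depth. At 50 h, replicate 3 was the highest library for 11 of the 23 genes and replicate 1 the lowest for 14. The same count was not made over all genes, so it cannot be called particular to the members. Replicate 1 also stood apart in its spike-in, with 832 gene counts per ERCC count against 253 to 289 in the others of that age, and in having counts for 10797 genes, the most of any library.

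Of the 34, 8 now have another symbol than their CG number. Besides twz and Shmt they included CG5872, now CtIP (FBgn0036991, arm 3L), a factor that trims broken DNA ends for repair by recombination. It held 38.6, 42.4 and 44.3 CPM at 24 h, 58.4, 62.6 and 67.0 at 36 h, 55.3, 54.4 and 31.0 at 50 h, and 40.3, 29.4 and 40.4 at 84 h. The 36 h libraries stood clear of all others, and 2 of the 50 h libraries lay above every end library. CG33156, now Nadk1b (FBgn0053156, arm 2R), an NAD kinase of the family that makes NADP, held 23.8, 16.4 and 17.3 CPM at 36 h. Its 36 h mean of 19.2 ± 4.06 stood against 11.9 ± 3.78 at 50 h and end means of 10.7 ± 4.52 and 10.7 ± 1.81.

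Genes tied to immune signalling in flies were also among them. CG5118, now Charon (FBgn0031317, arm 2L), an ankyrin-repeat protein of NF-kB-dependent transcription, held 11.1, 7.24 and 11.03 CPM at 24 h, 15.5, 17.5 and 20.8 at 36 h, 14.2, 14.1 and 25.0 at 50 h, and 12.2, 13.5 and 8.25 at 84 h. All its middle libraries lay above all end libraries, by a narrow gap. CG1667, now Sting (FBgn0033453, arm 2R), the receptor for cyclic dinucleotides in antiviral defence, held 18.4, 10.98 and 26.8 CPM at 24 h, 19.1, 26.3 and 29.8 at 36 h, 30.0, 30.0 and 59.6 at 50 h, and 19.4, 16.9 and 25.0 at 84 h. Its peak rested largely on 50 h replicate 3, which gave 49.8% of the 50 h sum, and without that library Sting did not meet the rule.

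Sting was the 1 member with a direct neighbour on the chromosome that was matched to the count table and also met the rule. Of the 68 genes next to a member in the BDGP6 annotation, 55 were matched to the count table. The others, Prim2 next to CG5665 among them, may stand in the count table under an older symbol and were not checked against the rule. More neighbours than Orc6 could therefore meet it. Over all symbols the rule kept 96 of the 5326 with a mean of at least 10 CPM at 36 or 50 h, or 1.80%. Of the 55 neighbours, whatever their level, it kept 1, given here as a description. This was Orc6, a subunit of the origin recognition complex that loads the replicative helicase. Its exons share 55 bases with those of Sting on the opposite strand. Orc6 held 16.9, 5.69 and 30.9 CPM at 24 h, 21.7, 22.4 and 29.8 at 36 h, 46.0, 34.8 and 35.0 at 50 h, and 18.7, 26.4 and 25.8 at 84 h. The means of both genes ran side by side, with 18.7 ± 7.90, 25.1 ± 5.46, 39.9 ± 17.1 and 20.4 ± 4.14 CPM for Sting and 17.8 ± 12.6, 24.6 ± 4.45, 38.6 ± 6.37 and 23.6 ± 4.31 for Orc6. Orc6 is shown because it met the same rule, so the rule set much of this likeness. Over the 12 libraries their log2(CPM + 1) values had a Pearson r of 0.78, which includes the shared age course and depth. Pairs of the members highest at 50 h had r of 0.11 to 0.88, with a median of 0.59. No source used here gives the strand setting of the counting, so reads in the shared bases cannot be assigned with certainty, and the shared stretch is 3.49% of the exonic length of Sting. Neither gene was called in middle against ends.

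**Figure D4:**
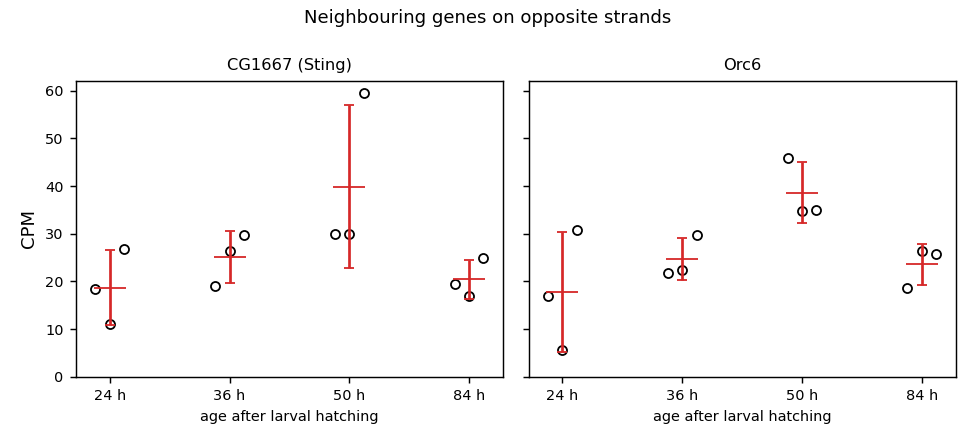
CPM of Sting (left) and of its neighbour Orc6 (right) by age on a shared axis from 0: circles are the 3 libraries of an age, the red line the mean and the bars 1 SD. Both have their highest mean at 50 h (39.9 and 38.6 CPM). The libraries keep the same order in both panels at 24 and 36 h, but not at 50 and 84 h. At 50 h Sting is highest in replicate 3 (59.6 CPM) and Orc6 in replicate 1 (46.0 CPM).

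CG11577, now CNPYb (FBgn0036847, arm 3L), of the Canopy family of secretory-pathway proteins, peaked at 50 h alone. It held 11.1, 6.46 and 9.40 CPM at 24 h, 5.53, 8.58 and 12.9 at 36 h, 13.5, 17.0 and 17.5 at 50 h, and 7.93, 7.5 and 10.3 at 84 h. Its 36 h mean was level with that of 24 h (8.99 and 8.98 CPM). CG42719 is listed in RefSeq as the long noncoding RNA CR42719 (arm 3L), the 1 member without a protein. It held 16.9, 2.71 and 8.38 CPM at 24 h, 27.7, 28.5 and 12.6 at 36 h, 21.0, 39.3 and 18.2 at 50 h, and 16.9, 9.37 and 7.84 at 84 h, with wide spread at every age.

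The other genes that the rule for naming picked had no name. CG42394 (FBgn0259740, arm 3R), with the shortest protein of the 34 at 77 residues, held 36.2, 36.2 and 67.8 CPM at 24 h, 72.5, 39.4 and 73.0 at 36 h, 81.9, 98.9 and 102 at 50 h, and 31.2, 72.9 and 73.0 at 84 h. The 24 h, 36 h and 84 h libraries overlapped, and all 50 h libraries lay above them. On the scale per length (TPM), it was the most abundant of the 34 at its peak with 376 TPM, followed by CG8490 with 135 and Shmt with 108, while CG32982 was the least with 10.6. CG14710 (FBgn0037920, arm 3R) held 2.74, 5.56 and 7.15 CPM at 24 h, 7.44, 4.48 and 6.43 at 36 h, 11.6, 15.7 and 12.9 at 50 h, and 4.23, 3.00 and 8.46 at 84 h. Only its 50 h libraries stood above all end libraries, at a mean 2.56 times the higher end.

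CG7544 (FBgn0033994, arm 2R) held 5.72, 4.65 and 7.97 CPM at 24 h, 2.86, 7.99 and 10.5 at 36 h, 8.67, 9.87 and 21.7 at 50 h, and 2.64, 4.31 and 3.09 at 84 h. Of its 50 h sum, 54.0% came from 50 h replicate 3, and it failed the rule without that library, without 24 h replicate 2 or without 84 h replicate 2. CG5850 (FBgn0032172, arm 2L) held 23.1, 11.1 and 20.6 CPM at 24 h, 16.0, 22.8 and 22.1 at 36 h, 26.4, 37.2 and 32.4 at 50 h, and 23.1, 22.1 and 17.7 at 84 h. Up to 24.5% of its exonic length is shared with an antisense RNA in BDGP6, CR43683, which had a mean of 1.38 CPM or less at every age, and 17.2% with CG4658 on the opposite strand, which had means of 6.67 to 19.4 CPM. Another 23.2% is shared on the same strand with the RNA CR44872, so these reads cannot be told apart by strand.

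Of the remaining 16 members, 5 were highest at 36 h. CG6254 and CG3253 are described above. CG31109 had 6.03 ± 2.33 CPM at 24 h, 11.8 ± 5.03 at 36 h and 9.82 ± 2.59 at 50 h, with 5.45 ± 0.95 at 84 h. Its lowest 36 h library and its highest end library were nearly equal, both 8.58 CPM. CG11125 had 14.9 ± 2.19 CPM at 36 h and 14.8 ± 6.43 at 50 h against 9.20 ± 1.23 and 7.73 ± 4.19 at the ends, and CG3919 had 16.8 ± 0.68 at 36 h against 10.2 ± 3.64 and 10.3 ± 4.78.

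The other 11 were highest at 50 h. CG32473 had 16.6 ± 2.49, 19.7 ± 3.56, 37.4 ± 3.60 and 21.0 ± 5.24 CPM at the 4 ages. CG8097 had 10.5 ± 3.72, 18.1 ± 3.38, 29.1 ± 5.03 and 16.6 ± 5.02 CPM. CG34408 had 16.4 ± 4.32 CPM at 36 h and 29.95 ± 3.59 at 50 h, with 17.6 ± 5.85 and 19.0 ± 1.55 at the ends. At 36 h, CG34408 was below both end means and CG32473 below that of 84 h.

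CG8032 had 15.4 ± 4.34 CPM at 36 h and 27.9 ± 6.01 at 50 h, CG2147 14.3 ± 2.44 and 28.0 ± 6.52, and CG3021 12.1 ± 4.03 and 26.7 ± 8.72. CG4497 had 7.27 ± 1.63 and 16.4 ± 3.17, CG31898 7.66 ± 2.79 and 15.4 ± 5.68, and CG16935 8.94 ± 3.55 and 15.2 ± 2.76. CG10898 reached 11.9 ± 6.23 CPM at 50 h, 53.5% of it in 50 h replicate 1, and CG5665 11.3 ± 1.71. The ratios of these 8 to their higher end were 1.55 to 2.15.

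In the BDGP6 annotation, a later build than those named for the deposited tables, so that no coordinates are given, the 34 were spread over the genome. There were 5 on arm 2L (14.7%), 9 on 2R (26.5%), 7 on 3L (20.6%), 7 on 3R (20.6%) and 6 on the X (17.6%). Of the 2244 annotated CG genes with a mean of at least 10 CPM at any age, 17.2% lay on 2L, 19.2% on 2R, 20.9% on 3L, 23.8% on 3R and 18.1% on the X. The median exonic length was 1834 bases against 2134, and the median protein 395 residues against 468. Exons were shared with a gene on the opposite strand by 13 members (38.2%, against 39.6%). In CG11125 this was 16.6% of the exonic length, with Fa2h, and in CG14710 14.7%, with Zaf1, which had means of 1.28 to 6.40 CPM. How many reads fell in the shared bases is not known, so the values of these genes are uncertain by an amount that cannot be given here.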

How the data were processed

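RNA of sorted type II neuroblasts was sequenced in 12 libraries. One deposited table gives the authors' read counts by gene and spike-in, and another gives TPM computed by the authors, from lengths and counts not given in the sources used here. HTSeq 0.6.1p1, STAR 2.4.0i and Bowtie2 2.1.0 are named in the submitters' processing notes, next to cutadapt 1.7.1 and CASAVA, and so are the builds BDGP5, dm3 and mm10, with no roles.

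From the counts, CPM were computed over gene rows. All ages were fitted together in edgeR 4.0.16 (R 4.3.3; TMM factors of 0.799 to 1.25, filterByExpr, robust quasi-likelihood fit, 8 residual degrees of freedom). Of the genes 7978 passed the filter, all 34 members among them, and the biological coefficient of variation was 36.2%. The edgeR fit was tested on simulated data. SE was taken as log2 fold change over root F. Libraries of one age differed by a chi-square per degree of freedom of 10.7 to 48.1, so none were duplicates. Alternatives used DESeq2 1.42.0, limma 3.58.1 on log2(TPM + 1), other scalings and left-out libraries.

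Members and lists were chosen with earlier results of these data known. Named members were the 8 highest, the 8 with the largest ratio, those with a current name, and those next to the 1.5-fold limit; members called by edgeR between 36 and 50 h were to be named too, and there were none. CG3253 and CG6254 were named for that change after their values were seen. Current symbols came from RefSeq for 34 members. No 2 members shared a family by symbol, but 26 of the 34 still have only their CG number, which cannot show a family. Promoter motifs were planned but not searched, because no sequence tables were used here.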

Additional observations from a re-analysis of the deposited data

How the results depend on the processing

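Under TMM-adjusted sizes the rule kept 44 CG genes, 17 of them among the 34, with 7 members lost on the fold, 8 on overlap and 2 on the ends. Under ERCC totals it kept 43, 10 of them members, with 17 of 24 lost on overlap. On the deposited TPM it kept 67, 30 of them members. A fold of 2 kept 12, a lowest mean of 5 CPM kept 52 and of 20 CPM 18, and allowing overlap kept 95. Leaving out 1 library gave 32 to 74 genes, with 26 to 34 of the members: 74 came from leaving out 50 h replicate 2, 58 from 36 h replicate 1, 56 from 50 h replicate 1, and 54 from either 84 h replicate 2 or 84 h replicate 3. With fewer libraries to keep apart the rule is easier to meet. CG14710 and CG8490 alone were kept in all 12 leave-outs and under TMM, ERCC and TPM.

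For 50 h against 36 h the count of members was 1 with DESeq2 and 1 with limma, and 0 under the other settings, leave-outs included (0 to 0). For middle against ends it was 8, 1 with the number of sorted cells as covariate, 6 with ERCC totals (5 of the 8), 10 with no filter, 7 with limma, and 6 to 10 in the leave-outs. Over all genes the 339 calls between 36 and 50 h became 148 under ERCC totals (144 higher, 4 lower, against 150 and 189), 532 with DESeq2, 536 with no filter and 157 to 448 in the leave-outs. The 237 of middle against ends became 78 (76 and 2, against 111 and 126), 379, 426 and 157 to 331, and 109 with limma. ERCC totals moved the median of all genes to 1.10 and 0.67. The members' median over it was then 0.33 and 0.69, against 0.43 and 0.71. The changes tried between 36 and 50 h, for the members named there and CG32473, kept their sign in every setting, but under ERCC totals those of CG3253, CG6254 and CG15822 shrank to -0.36, -0.06 and -0.17. CG3253 passed the threshold with DESeq2. Of the middle-against-ends changes, 15 values moved, all under ERCC totals except CG6333 with limma (2.08).

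Replicate numbers are shared by the ages, but 3 of 18 same-numbered pairs had a correlation of deviations over 0.1 (range -0.09 to 0.16), so the numbers were not taken as a pairing; 10 of 12 libraries correlated better on average with their own number. With a replicate block 0 and 8 members were called, 7 of the 8 as without it (CG42719 in place of CG15822), and 447 and 296 of all genes.

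Depth limits the low members most: at the ends CG6333 and CG32982 rest on 0 to 27 counts per library.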
